A study of Mus musculus with 16 samples.

Results

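Cardiac fibroblasts from mice at the disease stages labelled 8w and 11w were set against those from mice labelled 0w and 2w, in the transverse aortic constriction (TAC) model, a surgical narrowing of the aorta that loads the left ventricle with pressure. The cells were those typed FB in the authors' deposited annotation. The 9 mice compared gave 1465 such cells, 949 late (8w and 11w) and 516 early (0w and 2w), out of 1775 fibroblasts and 11492 cells of 16 mice in the series. The late mice were 3 labelled 8w, with 137, 87 and 65 fibroblasts, and 2 labelled 11w, with 322 and 338. The early mice were 2 labelled 0w, with 120 and 137 fibroblasts, and 2 labelled 2w, with 160 and 99. All 16 mice were male, and the labels give no strain, age or drug, and do not say whether the 0w mice had surgery. The other 7 mice, labelled 5w, entered no test. Left ventricles were digested by 2 routes, protease XXIV with collagenase II to enrich myocytes and a papain-containing enzyme to enrich the other cells, and single-cell libraries were made from polyA RNA. Each mouse is labelled as an individual, so a mouse was the replicate and its cells were not.

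Cardiac fibroblasts hold the muscle together by making fibrillar collagen, microfibrils and the glycoproteins that organise them. Under pressure load they are known to activate, mainly through transforming growth factor beta (TGF-beta) signalling, and to secrete matricellular proteins, which sit in the matrix and signal to cells with little structural role. Resting fibroblasts are known for surface and secreted genes such as Dpep1, Scara5 and Gsn, and for lipid transport genes. The level of a gene in a mouse is here the mean over its fibroblasts of CPM, the counts of a gene scaled to a fixed total of the cell's unique molecular identifiers (UMIs), with the 34 mitochondrially encoded genes left out, so that each cell weighed the same.

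The fibroblasts expressed fibroblast markers throughout. Summed over 8 markers, the level was 17593 to 30886 CPM in the late mice and 27058 to 33492 CPM in the early mice. Endothelial markers (7 genes) summed to 237 to 1598 CPM in late and 743 to 1295 CPM in early mice, macrophage markers (7 genes) to 121 to 485 and 230 to 460 CPM, and the globin and erythroid markers (5 genes) to 3302 to 89960 and 8506 to 51926 CPM. No marker of these lists was at 0 in all 9 mice. The median fibroblast had 4961 to 52392 non-mitochondrial UMIs, lowest in the 11w mice. The plates on which cells were processed each held mice of one arm, so plate and stage cannot be told apart. On 4 of those plates (A, C, J and K) over 40% of the typed cells were cardiomyocytes, and these gave 0%, 18.4%, 47.7%, 18.9% and 53.8% of the fibroblasts of the late mice, in the order above, against 6.67%, 8.76%, 4.38% and 6.06% in the early mice. No cell name was listed for more than 1 cell.

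One late mouse stood apart from the other 4. All 137 fibroblasts of 8w replicate 1 came from a plate shared with a 5w mouse, they were the deepest, with a median of 52392 UMIs, and their levels of Comp, Postn, Cilp and Ltbp2 lay near those of 0w mice. Counts of called genes, the fibroblast share and the sum of cardiomyocyte transcripts are therefore given with and without that mouse, and the medians of gene lists are plotted both ways. The 8-mouse comparison was added after these levels were seen, so its p-values are smaller than those of a test on mice chosen without regard to the outcome. For some genes below, the other 4 late mice are all above or all below the early mice. The share of all genes that separate these 8 mice so is not given here, so those statements have no background rate.

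In all 9 mice no gene passed the test. Of 8646 genes with a mean level of at least 10 CPM, 0 (0.0%) passed an adjusted p of 0.05 in limma on log2(level + 5 CPM), with 613 under an unadjusted p of 0.05. The quasi-likelihood test of edgeR on raw summed counts called 0 of 11882 genes, with 912 under an unadjusted p of 0.05, and DESeq2 on the same sums called 180 higher and 172 lower in late mice. Without 8w replicate 1, limma called 13 of 8587 genes higher (0.151%) and 8 lower (0.0932%), 0.245% in all, with 698 under an unadjusted p of 0.05. On those 8 mice edgeR called 2, Comp and Bdnf, both higher, and DESeq2 called 184 higher and 157 lower. The 21 genes called in 8 mice fall outside the rule that chose names from the 9-mouse test, and were chosen after their values were seen. With a further mouse left out of the 8, Comp, Ltbp2, Prg4, Bdnf, Abca6 and Xirp2 were called in each of the 8 fits, and each of the other 15 missed in at least 1. Of the 21 calls 14 ended without 0w replicate 1, 14 without 8w replicate 3, 13 without 0w replicate 2, 13 without 11w replicate 2, 7 without 2w replicate 1, 5 without 11w replicate 1, 5 without 8w replicate 2 and 2 without 2w replicate 2.

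Among the matricellular and matrix genes, 4 secreted proteins were higher in the 8-mouse comparison. Comp encodes a cartilage thrombospondin that binds collagen fibrils, Ltbp2 a microfibril-associated member of the latent TGF-beta binding proteins, Prg4 the lubricant lubricin, and Spp1 the adhesive glycoprotein osteopontin. Comp was at 1.91, 361 and 322 CPM in the 8w mice and 243 and 409 CPM in the 11w mice, against 0.33 and 3.10 CPM in the 0w and 8.67 and 9.76 CPM in the 2w mice. Each late mouse but 8w replicate 1 was above every early mouse. The log2 difference was 3.99 ± 1.16 (SE) in 9 mice, with an adjusted p of 0.588 in limma, and 5.11 ± 0.46 without 8w replicate 1, with an adjusted p of 2.5e-07. In edgeR the 8-mouse difference was 7.28, with an adjusted p of 9.8e-05.

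Ltbp2 was at 10.3, 420.4 and 561 CPM at 8w and 210.2 and 411 CPM at 11w, against 9.89 and 9.65 CPM in the 0w and 14.7 and 72.9 CPM in the 2w mice. The late mice again split into 8w replicate 1, inside the early range, and the other 4, above it. The difference was 3.06 ± 1.10 in 9 mice and 3.99 ± 0.48 in 8, with limma adjusted p-values of 0.632 and 2.5e-05, while edgeR gave 0.296 in 8 mice. Prg4 was at 123, 308 and 950.1 CPM at 8w and 652 and 768 CPM at 11w, against 85.0 and 204 CPM in the 0w and 45.1 and 34.0 CPM in the 2w mice. Its lowest late value lay between the 0w values, and the difference was 2.55 ± 0.62 in 9 mice and 3.0 ± 0.43 in 8, with limma adjusted p-values of 0.403 and 0.00058. In 8 mice edgeR did not call Prg4, which passed in 24 of 27 alternative settings. Spp1, a gene that macrophages also make, had no UMI in the 137 cells of 8w replicate 1 and 36.1 to 359 CPM in the other late mice, against 0.0252 to 22.2 CPM in the early mice. Its 8-mouse difference was 3.24 ± 0.67 with a limma adjusted p of 0.0288. A count of 0 in 137 cells allows a share of up to 2.19% of cells with a UMI, counting error only.

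The share of fibroblasts with a Comp UMI was also taken at equal depth. With each cell thinned to 2000 UMIs, 0.735%, 17.2%, 24.6%, 17.9% and 30.9% of fibroblasts in the late mice held one, against none of 119 and of 137 cells at 0w, which allow up to 2.52% and 2.19%, and 0.629% and 1.02% at 2w. Thinning left out 37 and 69 shallower cells of the 11w mice and at most 1 of any other mouse. Without thinning the share was 32.5% averaged over late mice and 2.22% over early mice. Endothelial cells, which should make little Comp, held one at the same thinned depth in 0.5% to 8.38% of cells in late mice and 0% to 1.01% in early mice. In 11w replicate 2, which had the highest endothelial share, the fibroblast share of 30.9% was above it. Median depths there were 4961 UMIs in fibroblasts and 9875 in endothelial cells.

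Postn, periostin, and Cilp, a matrix protein first known from cartilage, did not pass the test in either set of mice. Postn was at 121, 1397 and 2244 CPM at 8w and 1267 and 1361 CPM at 11w, against 107 and 195 CPM in the 0w and 821 and 1216 CPM in the 2w mice. Cilp was at 98.6, 1187 and 1211 CPM at 8w and 789.7 and 621 CPM at 11w, against 33.9 and 59.2 CPM in the 0w and 500.3 and 976 CPM in the 2w mice. For both genes the 2w mice lay close to the later mice other than 8w replicate 1, and the 0w mice and 8w replicate 1 lay far below. The differences were 1.26 ± 1.08 and 1.67 ± 1.21 in 9 mice and 1.98 ± 0.78 and 2.30 ± 1.12 in 8, with limma adjusted p-values of at least 0.586.

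The promoters of Postn, Cilp and Ltbp2, which were lowest among the late mice in the same mouse, are shown for their sequence features. Each runs from 250 bases before to 50 after a gene start of RefSeq (GRCm38.p6), 5′ to 3′ on the gene's strand, and capitals mark a match to TATAAA. The Postn window is at chr3:54360857-54361156 on the plus strand, one of 2 RefSeq starts, Cilp is at chr9:65264930-65265229 on the plus strand, and Ltbp2 at chr12:84876442-84876741 on the minus strand.
Postn: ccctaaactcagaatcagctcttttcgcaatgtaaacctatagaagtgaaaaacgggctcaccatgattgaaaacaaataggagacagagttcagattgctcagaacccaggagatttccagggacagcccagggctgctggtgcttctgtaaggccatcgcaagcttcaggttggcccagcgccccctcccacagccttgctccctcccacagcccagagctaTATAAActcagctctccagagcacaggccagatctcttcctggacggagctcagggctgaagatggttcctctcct
Cilp: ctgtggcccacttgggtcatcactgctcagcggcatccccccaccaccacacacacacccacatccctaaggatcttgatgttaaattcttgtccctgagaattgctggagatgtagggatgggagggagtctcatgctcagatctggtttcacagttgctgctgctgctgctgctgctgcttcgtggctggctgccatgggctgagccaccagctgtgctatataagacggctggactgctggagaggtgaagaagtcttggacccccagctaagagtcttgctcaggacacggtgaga
Ltbp2: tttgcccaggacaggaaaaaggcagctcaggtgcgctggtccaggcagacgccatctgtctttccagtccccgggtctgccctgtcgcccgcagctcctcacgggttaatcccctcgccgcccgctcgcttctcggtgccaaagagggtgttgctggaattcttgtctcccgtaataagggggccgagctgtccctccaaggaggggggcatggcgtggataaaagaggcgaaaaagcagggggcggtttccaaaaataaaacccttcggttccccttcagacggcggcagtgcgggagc
TATAAA on either strand was in 13.6% of 32851 mouse promoter windows of this length, and among the 3 it was found only in that of Postn, 26 bases before the start. The window of the other Postn start, not printed, held no match to TATAAA. The AP-1 letters TGANTCA (7.81% of windows) and the MCAT letters GGAATG (14.7%), also searched on both strands, were in none of the 3.

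**Figure D1:**
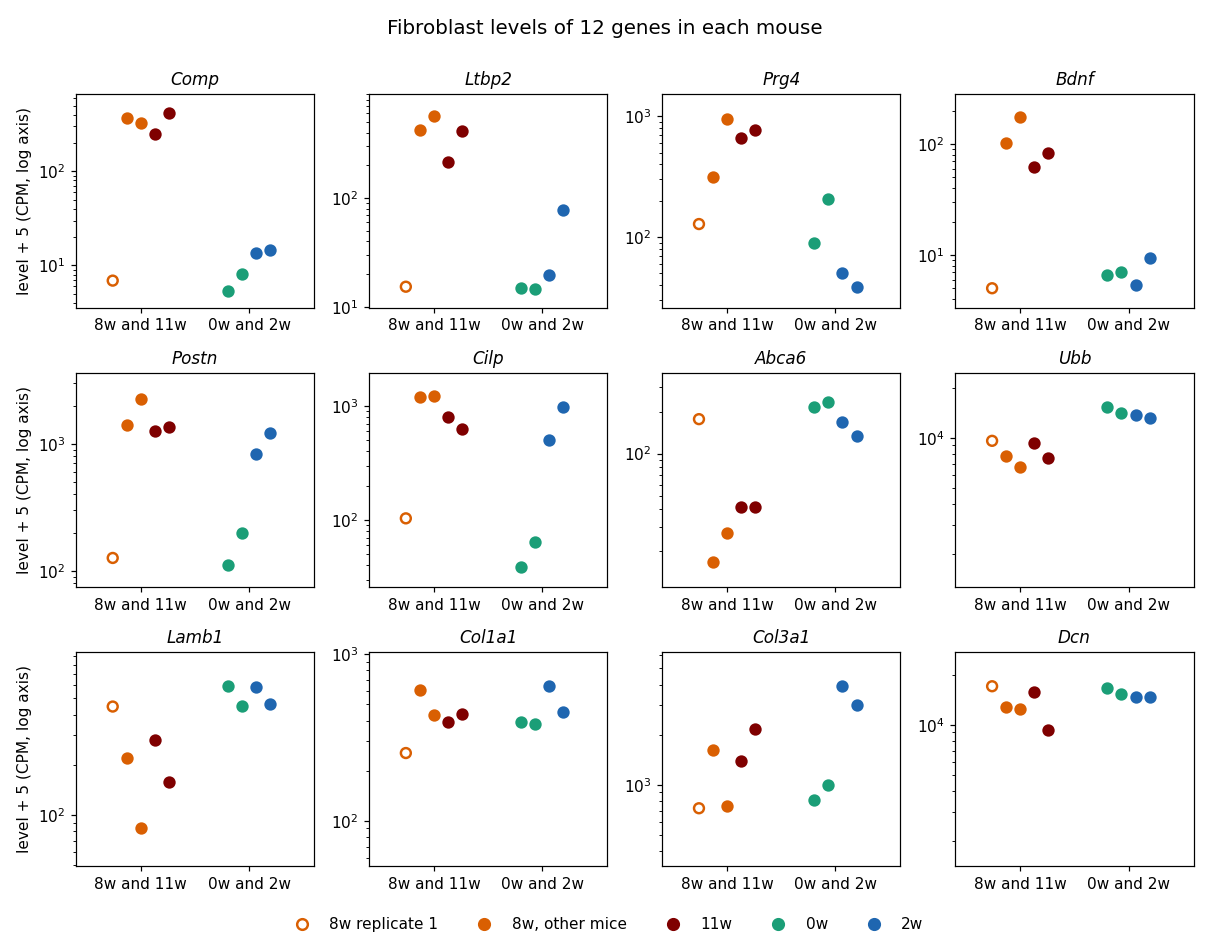
Level of 12 genes in the fibroblasts of each mouse, plotted as CPM + 5 on a log axis, 8w and 11w on the left and 0w and 2w on the right, 1 point per mouse, with 8w replicate 1 as an open circle. Comp is at 243 to 409 CPM in 4 late mice and at most 9.76 CPM in early mice, while Postn and Cilp are already high at 2w.

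Over the whole matricellular list 22 of 27 members were tested, 15 had a positive difference and the median was 0.08 in 9 mice, where 4096 of all 8646 genes were positive and their median was -0.03. None passed in 9 mice, and Comp and Spp1 passed in 8. Ctgf, a TGF-beta and YAP target, was at 46.2 to 1299 CPM in late and 138 to 446 CPM in early mice, and its 8-mouse difference was 1.44 ± 0.36 with a limma adjusted p of 0.0999. Wisp2, of the same family, had a difference of 1.51 ± 0.40 and an adjusted p of 0.145 there. Thbs4, a thrombospondin related to Comp, ranged from 0 to 545 CPM in late mice and from 1.66 to 214 CPM in early mice. Tnc, tenascin C, was at 0 to 8.5 CPM in late mice and 5.49 to 49.5 CPM in early mice, with a 9-mouse difference of -1.33 ± 0.60 and an adjusted p of 0.666. Fibronectin, Fn1, was at 123 to 491 CPM in late and 209 to 349 CPM in early mice, a difference of 0.04 ± 0.34 in 9 mice.

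The collagens as a group did not pass. In 9 mice 23 of 30 were tested, 8 had a positive difference and the median was -0.14. In the 8 mice 11 of 22 were positive and the median was 0.01, and 0 were called with either set of mice. Col1a1 was at 250.1, 604, 428, 388 and 435 CPM in late mice, against 384, 374, 637 and 443 CPM in early mice. The groups overlapped, and the difference was -0.14 ± 0.28 in 9 mice and 0.03 ± 0.28 in 8. Col1a2 averaged 906 ± 170.4 CPM in late (SD, n = 5) and 1208 ± 536 CPM in early mice (SD, n = 4). Col3a1, the type III fibrillar chain, was at 719 to 2166 CPM in late mice, against 808 and 989.6 CPM in the 0w and 3904 and 3009.5 CPM in the 2w mice, so the 2w mice were the highest of all. Col8a1, a short-chain network collagen, averaged 757 ± 349.5 CPM in late and 593 ± 368 CPM in early mice.

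Single collagens lay on both sides of 0 without passing. Col12a1, a fibril-associated collagen, was at 3.77, 119, 25.5, 40.2 and 68.9 CPM in late mice and at 3.82 to 8.27 CPM in early mice, with limma adjusted p-values of 0.586 in 9 mice and 0.0713 in 8. Col5a3, a minor fibrillar chain, was at 17.0 to 55.1 CPM in late mice, all below the 93.9 to 148 CPM of early mice, a difference of -1.57 ± 0.39 with an adjusted p of 0.273. Col6a2, of the microfibrillar type VI collagen, was at 113 to 255 and 225 to 473 CPM, and Col4a1, of basement membrane, at 466 to 882 and 866 to 1196 CPM, in late and early mice. In 9 mice 81 genes (0.937% of those tested) were higher in every late mouse than in every early one and 136 (1.57%) were lower, and Col5a3 is one of the 136. Of the collagen processing list 21 were tested, 8 were positive and the median was -0.15, while without 8w replicate 1 there were 12 positive and the median was 0.04. Lox, the lysyl oxidase that crosslinks collagen, averaged 134 ± 93.1 CPM in late and 148 ± 133 CPM in early mice, and Cthrc1, a secreted protein of matrix-producing fibroblasts, averaged 46.8 ± 34.1 and 8.07 ± 9.61 CPM. Cthrc1 had an 8-mouse difference of 2.43 ± 0.61 with an adjusted p of 0.107.

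The contractile gene Acta2, the smooth muscle actin used as a mark of myofibroblasts, was at most 64.2 CPM in any mouse. It was at 5.40, 5.37, 46.2, 17.8 and 36.7 CPM in late mice, against 7.14, 13.7, 26.4 and 64.2 CPM in early mice, a difference of -0.26 ± 0.62 with a limma adjusted p of 0.961. Both arms spanned the same range. Of the contractile list 18 were tested and 12 were positive, with a median of 0.09 (13 and 0.26 without 8w replicate 1), and none passed. Actn1, which crosslinks actin, averaged 60.7 ± 33.2 CPM in late and 18.6 ± 16.2 CPM in early mice, with an adjusted p of 0.624.

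Among secreted and signalling genes, Bdnf, Dkk3, Pmepa1, Ddah1 and Dio2 were higher in the 8-mouse comparison. Bdnf, a neurotrophin, was at 0.0266, 97.4 and 171 CPM at 8w and 57.4 and 77.1 CPM at 11w, against 1.67 and 2.05 CPM in the 0w and 0.372 and 4.48 CPM in the 2w mice. The 4 late mice other than 8w replicate 1 were all above the early mice. The difference was 2.95 ± 0.74 in 9 mice and 3.81 ± 0.55 in 8, with limma adjusted p-values of 0.273 and 0.00058, and edgeR gave 0.0021 in 8. Dkk3, a secreted member of the dickkopf family, was at 5.17, 126, 133, 122 and 129 CPM in late mice, against 0.496 and 5.99 CPM in the 0w and 23.5 and 51.6 CPM in the 2w mice, and its 8-mouse difference was 2.91 ± 0.57 with an adjusted p of 0.0197.

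Pmepa1, a TGF-beta target that restrains Smad signalling, was at 172, 489, 773, 470.2 and 405 CPM in late mice, against 124, 105, 267 and 219.7 CPM in early mice. The difference was 1.29 ± 0.36 in 9 mice and 1.61 ± 0.33 in 8, with limma adjusted p-values of 0.403 and 0.0278. Ddah1, which degrades an endogenous inhibitor of nitric oxide synthase, averaged 94.8 ± 58.2 CPM in late and 20.1 ± 28.7 CPM in early mice, and Dio2, which activates thyroid hormone, 80.7 ± 48.1 and 15.4 ± 14.8 CPM. Their 8-mouse differences were 2.87 ± 0.58 and 2.60 ± 0.52, with adjusted p-values of 0.0259 and 0.0224. Both were lowest among the late mice in 8w replicate 1, at 2.74 and 0.826 CPM.

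Of the TGF-beta list 23 of 28 were tested, 15 were positive and the median was 0.19 (0.27 without 8w replicate 1), and none passed. Tgfbr1, the type I receptor, was at 81.4 to 156 CPM in all late mice and 21.4 to 66.8 CPM in all early mice, a difference of 1.35 ± 0.39 with a limma adjusted p of 0.443. Of genes tested, 0.937% were likewise higher in every late mouse. Without the fibroblasts of the myocyte-rich plates the arms overlapped, with 8w replicate 3 at 39.7 CPM and early mice at 21.8 to 69.8 CPM. Ltbp3, which tethers latent TGF-beta, averaged 84.2 ± 42.5 CPM in late and 33.4 ± 17.2 CPM in early mice. Smad4, the shared Smad, averaged 27.9 ± 12.4 and 69.5 ± 30.5 CPM, with an adjusted p of 0.628. Smad6, an inhibitory Smad, and Eng, a co-receptor, had positive differences of 1.47 ± 0.59 and 0.98 ± 0.44, and their levels in endothelial cells were 3.17 and 5.29 times those in fibroblasts.

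The lists of Wnt modulators (8 of 22 tested, 6 positive, median 0.41) and of chondrocyte and bone genes (8 of 21 tested, 6 positive, median 0.55) had 1 called member each in 8 mice, Dkk3 and Comp. Within the early arm the medians of these lists for 2w minus 0w were 0.05 and 1.01 in the 8-mouse fit. Sfrp2, a Wnt inhibitor, stayed under the 10 CPM limit in the 9-mouse test, at 4.02 to 30 CPM in late and 2.92 to 11.5 CPM in early mice. Meox1, a transcription factor of fibroblast activation, was at 21.2 to 182 CPM in late and 17.2 to 98.6 CPM in early mice, with an 8-mouse difference of 1.68 ± 0.47 and an adjusted p of 0.174. In its list of activation regulators 28 of 34 were tested, 17 were positive and the median was 0.26.

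Among the genes that were lower, Abca6, an ABC transporter of the lipid-transporting A family, was the resting fibroblast gene that passed in 8 mice. It was at 172, 11.6 and 21.9 CPM at 8w and 36.2 and 36.7 CPM at 11w, against 211 and 231 CPM in the 0w and 165 and 129 CPM in the 2w mice. The 4 late mice were below all early mice, and 8w replicate 1 was inside the early range. The difference was -2.12 ± 0.50 in 9 mice and -2.64 ± 0.43 in 8, with limma adjusted p-values of 0.256 and 0.0024. In 8 mice edgeR did not call Abca6, which passed in 24 of 27 alternative settings.

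The resting fibroblast list was measured whole. All 25 were tested, 9 had a positive difference, and the median was -0.43 in 9 mice and -0.72 in 8, against -0.03 and -0.06 for all genes. Within the early arm the list's median for 2w minus 0w was already -0.49 in the 8-mouse fit, against 0.003 for all genes. In 9 mice 9 members were lower and none higher at an unadjusted p of 0.05, and over all genes 335 were lower and 278 higher. Beside Abca6 these were Scara5, Hsd11b1, Ly6c1, Lpl, Cd34, Ly6a, Dpt and Gsn. Scara5, a ferritin receptor, was at 199, 107, 7.10, 26.7 and 14.5 CPM in late mice and 108 to 137 CPM in early mice. Hsd11b1, which regenerates active glucocorticoid, averaged 164 ± 117 CPM in late and 399 ± 229 CPM in early mice, and Gsn, which severs actin, 6308 ± 2779 and 8818 ± 1159.9 CPM. Off the myocyte-rich plates Hsd11b1 was at 753 and 444 CPM at 0w and at 309 and 176 CPM at 2w. The late mice there, at 88.4 to 346 CPM, enclosed the 2w values. Ly6c1 and Lpl were more abundant in other cells, with endothelial levels 5.41 times and cardiomyocyte levels 3.80 times those of fibroblasts.

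Other fibroblast identity genes did not separate the arms. Dcn, decorin, averaged 13441 ± 3023 CPM in late and 15395 ± 907 CPM in early mice. Pdgfra, a receptor for platelet-derived growth factor, averaged 228 ± 106 and 251 ± 128 CPM, Tcf21, a lineage transcription factor, 82.6 ± 48.4 and 63.4 ± 31.6 CPM, and Dpep1, a membrane dipeptidase, 524 ± 164 and 845 ± 417 CPM. The lowest limma adjusted p among these 4, in either set of mice, was 0.604 for Dpep1. Lum, a keratan sulphate proteoglycan, was at 256 to 1294 CPM in late and 547 to 1781 CPM in early mice, and Bgn, biglycan, at 476 to 1019 and 349.8 to 715 CPM.

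Lamb1, a laminin chain of basement membrane, was at 442, 214, 78.5, 277 and 152 CPM in late mice, against 587, 446, 585 and 458 CPM in early mice. The arms did not overlap, by a gap of 442 against 446 CPM, and 1.57% of genes tested were likewise lower in every late mouse. The 8-mouse difference of Lamb1 was -1.62 ± 0.34 with a limma adjusted p of 0.0288.

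Ubb, a polyubiquitin gene, was at 6678 to 9593 CPM in late and 13184 to 15282 CPM in early mice, with no overlap, as for 1.57% of genes tested. Its differences were -0.79 ± 0.18 and -0.85 ± 0.19, with limma adjusted p-values of 0.256 and 0.0458. Penk, proenkephalin, was at 108, 0.538, 0, 35.6 and 3.99 CPM in late mice, against 139.8, 92.7, 57.0 and 35.5 CPM in early mice, and passed in 8 at an adjusted p of 0.0499. The predicted gene Gm26461 averaged 32.5 ± 22.5 CPM in late and 167 ± 98.4 CPM in early mice and passed in 8 at 0.0394.

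Fabp4, a fatty acid carrier, and Rbp7, a retinol carrier, were also lower in 8 mice, with differences of -1.69 ± 0.32 and -2.40 ± 0.50 and limma adjusted p-values of 0.0144 and 0.0301. Both are genes of capillary endothelium, with endothelial levels 8.84 and 10.3 times those in fibroblasts, and in endothelial cells of the same mice their differences were -1.45 and -2.47. Endothelial markers in the fibroblasts of these 8 mice summed to 237 to 777 CPM in late and 743 to 1295 CPM in early mice, and their part in the difference was not tested.

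Of the fatty acid list 20 of 28 were tested, 5 were positive and the median was -0.31 in 9 mice. At an unadjusted p of 0.05, 6 members were lower and none higher: Ech1, Lpl, Etfa, Fabp4, Etfb and Acaa2. Over all 8646 genes tested 335 were lower and 278 higher at that p. Ech1, a peroxisomal and mitochondrial isomerase, was at 90.2 to 122 CPM in late and 201 to 370.2 CPM in early mice, without overlap, as for 1.57% of genes tested. It passed in neither set, with limma adjusted p-values of 0.256 and 0.0802, and its cardiomyocyte level was 3.32 times that of fibroblasts. Etfb, Acaa2 and Lpl had cardiomyocyte levels 3.34, 3.45 and 3.80 times those of fibroblasts, and Etfa 1.78 times. Outside the list, Pdk4, which blocks pyruvate oxidation, was at 0.814 to 30.6 CPM in late and 39.1 to 82.1 CPM in early mice, with a cardiomyocyte level 7.95 times higher. Angptl4, an inhibitor of lipoprotein lipase, was at 0.0686 to 28.2 CPM in late and 31.8 to 90.6 CPM in early mice, with a cardiomyocyte level only 0.251 of the fibroblast one. Idh1, cytosolic isocitrate dehydrogenase, was at 24.2 to 59.6 and 111 to 137 CPM. Their 9-mouse adjusted p-values were 0.340, 0.315 and 0.256. Angptl4 and Idh1 were named after their values were seen.

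The glucocorticoid response list had 15 of 16 tested, 2 positive and a median of -0.47. Within the early arm its median for 2w minus 0w was -0.64 in the 8-mouse fit, against 0.003 for all genes. Zbtb16, a transcription factor induced by glucocorticoids, was at 39.8, 0.0511, 1.22, 17.2 and 19.8 CPM in late mice, against 93.5, 77.4, 29 and 104 CPM in early mice. Only 8w replicate 1 was inside the early range, and the difference was -2.30 ± 0.62 in 9 mice and -2.69 ± 0.62 in 8, with limma adjusted p-values of 0.356 and 0.0713. Tsc22d3, which encodes the glucocorticoid-induced leucine zipper, averaged 183 ± 128 CPM in late and 399.9 ± 208 CPM in early mice. Off the myocyte-rich plates Tsc22d3 was at 568 and 647 CPM at 0w and at 285 and 170 CPM at 2w. The late mice there, at 89.8 to 403 CPM, enclosed the 2w values. The metallothioneins Mt1 and Mt2 averaged 1894 ± 540.3 and 509 ± 146 CPM in late mice, against 2755 ± 672 and 766 ± 209 CPM in early mice. These 4 were the members under an unadjusted p of 0.05, all lower, where over all 8646 genes tested 335 were lower and 278 higher. Of the MHC class I list 16 of 18 were tested and 2 were positive, with a median of -0.42, and the heavy chain gene H2-K1 averaged 346 ± 151 CPM in late and 744 ± 519 CPM in early mice, with a 2w mouse at 1516 CPM the highest.

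**Figure D2:**
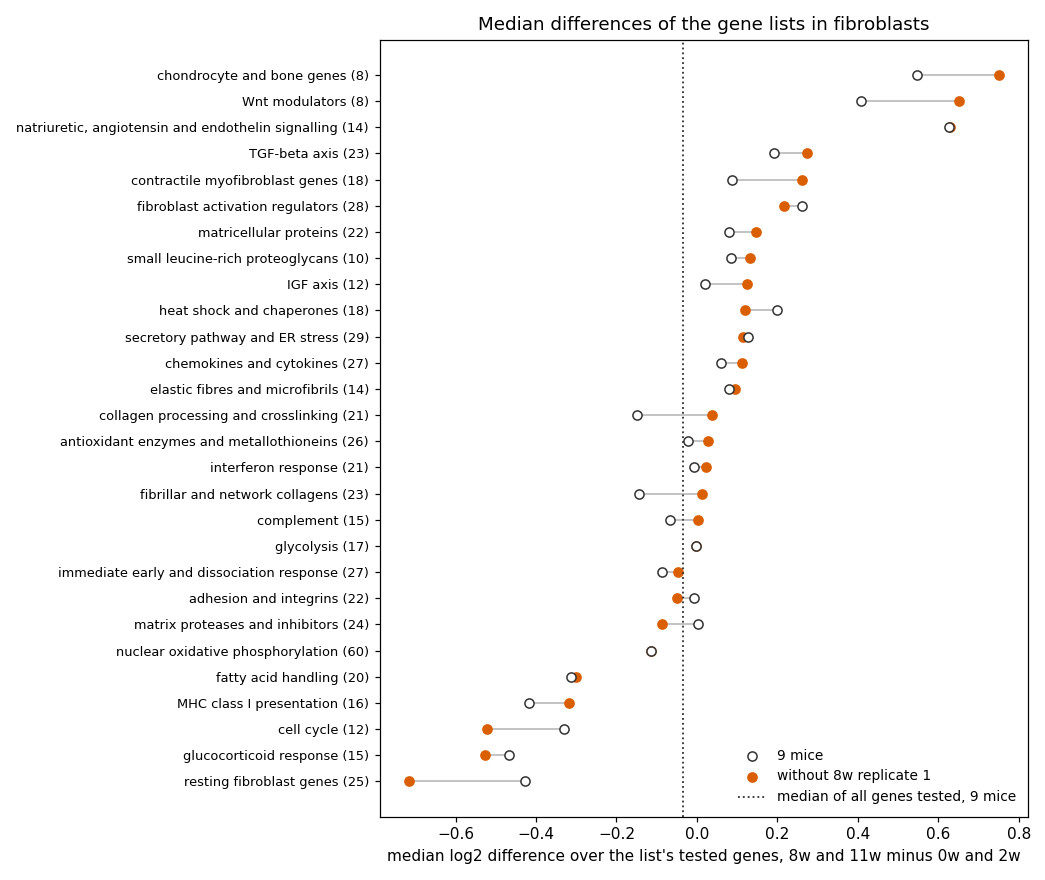
Median log2 difference, 8w and 11w minus 0w and 2w, over the tested genes of 28 lists (number tested in 9 mice in brackets), open for 9 mice and filled without 8w replicate 1, with a dotted line at the median of all genes. Resting fibroblast genes lie lowest without that mouse, at -0.72, and chondrocyte and bone genes highest, at 0.75. Their medians for 2w minus 0w, within the early arm, were -0.49 and 1.01 in the 8-mouse fit (not plotted).

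Outside these groups Bhlhe40 and Bhlhe41, repressors linked to the circadian clock, separated the arms in all 9 mice without passing the test. Both were named after their values were seen, and are among the 81 genes (0.937% of those tested) that were higher in every late mouse than in every early one. They were at 123 to 209 and 15.1 to 107 CPM in late mice, against 39.2 to 101 and 5.37 to 12.4 CPM in early mice. Their differences were 1.23 ± 0.34 and 1.91 ± 0.54, each with a limma adjusted p of 0.403. For Itgbl1 the lowest late mouse was just below the highest early mouse. Itgbl1, an integrin-like secreted protein, averaged 252 ± 122 and 89.9 ± 41.3 CPM in late and early mice, with adjusted p-values of 0.377 in 9 mice and 0.0790 in 8. The complement component C3 (902 ± 216 and 844 ± 182 CPM), the growth factor Igf1 (196 ± 59.7 and 192 ± 113 CPM) and the microfibril protein Mfap4 (197 ± 119 and 222 ± 79.3 CPM) differed between late and early mice by less than the spread between mice.

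Within the early arm, a fit with the 4 stages called 4 genes higher and 6 lower at 2w (0.116% of 8646) in 9 mice, and 15 and 24 (0.454% of 8587) without 8w replicate 1, which enters only through the spread. Each of these stages had 2 mice. In the 8-mouse fit Cilp was higher at 2w by 3.82 ± 0.38, Postn by 2.75 ± 0.35, Timp1, an inhibitor of metalloproteinases, by 2.40 ± 0.37, and Col3a1 by 1.93 ± 0.35. Their limma adjusted p-values were 0.0013, 0.0060, 0.0190 and 0.0404. Fstl1, a secreted follistatin-like glycoprotein, was at 2854 and 3028 CPM at 2w, set against 859 and 857 CPM at 0w, and was called in both fits, at 0.0443 in 9 mice. Sparc, a collagen-binding matricellular protein, Lgals1, galectin 1, S100a6, a calcium-binding protein, and Rarres2, chemerin, were also called in 8.

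The 2w values of several of these genes were above those of later mice. Sparc was at 3314 and 3218 CPM at 2w, set against 1141 and 1027 CPM at 0w, and the late mice had 825 to 1916 CPM. Rarres2 was at 749 and 789 CPM at 2w, set against 227 and 225 CPM at 0w, with 114 to 399.7 CPM in late mice. The lower calls included Fmo2, a flavin monooxygenase, at 73.0 and 60.3 CPM at 2w, set against 435 and 449 CPM at 0w, and Serpina3n, a protease inhibitor, at 79.5 and 66.3 against 491 and 451 CPM. The late mice had 99.3 to 251 CPM of Fmo2 and 88.8 to 748 CPM of Serpina3n. With edgeR 0 genes passed for 2w against 0w in either set, with 1643 under an unadjusted p of 0.05 in 9 mice.

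Within the late arm, 11w differed from 8w in few genes. In 9 mice 0 genes were higher and 2 lower (0.0231% of 8646), and without 8w replicate 1 the counts were 1 and 6 (0.0815% of 8587). Comp differed by -0.11 ± 0.53 and Postn by -0.43 ± 0.35 between 11w and 8w in the 8-mouse fit, with limma adjusted p-values of 0.968 and 0.746. Only 2 mice stood for each stage in that fit.

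Fibroblasts of 3 of the 5w mice, with 218, 29 and 43 cells, were looked at beside these and not compared. Comp was at 0.755 CPM in the first, on the plate of 8w replicate 1, and had no UMI in the other two, where counts of 0 allow shares of up to 10.3% and 6.98% of cells. Postn was at 63.8, 383 and 106 CPM and Cilp at 91.8, 245 and 16.9 CPM. For Comp, Postn and Cilp these mice lay below the 4 late mice other than 8w replicate 1, as that mouse itself did.

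Cardiomyocyte transcripts in fibroblasts were marked as free RNA and kept apart. Marked were the 8 cardiomyocyte markers and any gene at least 10 times higher in cardiomyocytes and at 100 CPM or more there, 21 genes in all. They summed to 4596, 8628, 8255, 3015 and 6842 CPM in late mice, against 4780, 5857, 6461 and 8530 CPM in early mice. The arms overlapped, and the mean difference was -139.6 CPM, with p = 0.968 in an exact two-sided permutation test of the 126 relabellings of 9 mice. In the 8 mice it was 278.1 CPM, with p = 0.8 in the exact permutation test over 70 relabellings. A few cells carried much of the sum in the 2w mice. Cells with over 5% of their UMIs from cardiomyocyte markers numbered 6 of 160 and 6 of 99 fibroblasts there, 1 of 137 in 8w replicate 1 and 0 in the other mice. With those cells left out the sums were 4189, 8628, 8255, 3015 and 6842 CPM in late mice, against 4780, 5857, 3808 and 3875 CPM in early mice. The mean difference then turned to 1606 CPM, with p = 0.254 in the exact permutation test on 9 mice, and was 2105 CPM in the 8, with p = 0.171 in the exact test. The arms still overlapped. A wider set held 235 genes at least 3 times higher in cardiomyocytes and at 100 CPM or more there. In all fibroblasts it averaged 105114 CPM in late and 85989 CPM in early mice, and the arms overlapped. The difference was 19126 CPM in 9 mice (p = 0.413, exact permutation test) and 27525 CPM in the 8 (p = 0.229, exact permutation test).

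Cardiomyocyte stress genes below that limit are not among the 21 and were kept apart too. Xirp2, an actin-binding protein of intercalated discs, Myh7, the slow myosin heavy chain, and Nppb, the B-type natriuretic peptide, had cardiomyocyte levels 5.26, 6.58 and 5.87 times those of fibroblasts. Xirp2 was at 55.6, 456, 724, 491 and 1635 CPM in late mice, against 61.7, 44.2, 101 and 93.3 CPM in early mice. Myh7 was at 36.3 to 347 CPM in late and 35.5 to 75.8 CPM in early mice, and Nppb at 11.4 to 465 and 11.3 to 50.6 CPM. In 8 mice they were higher by 3.24 ± 0.37, 2.20 ± 0.38 and 2.76 ± 0.52, with limma adjusted p-values of 2.0e-05, 0.0071 and 0.0144. In endothelial cells of the same mice the differences were of like size, 3.20, 2.18 and 3.35. Nppa, the atrial peptide, and Ankrd1, a stretch-responsive muscle gene, had 8-mouse differences of 2.49 ± 0.61 and 1.82 ± 0.73 and did not pass. The list of natriuretic, angiotensin and endothelin signalling genes, which holds Nppa and Nppb, had 14 members tested, 11 positive and a median of 0.63 in 9 mice.

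Without the fibroblasts of the 4 myocyte-rich plates Xirp2, Myh7 and Nppb were no longer called, while Comp, Ltbp2, Prg4, Bdnf and Abca6 were. There Xirp2 differed by 2.12 ± 0.57 and Myh7 by 0.69 ± 0.64, with limma adjusted p-values of 0.156 and 0.854 in 8 mice. Nppb and Nppa fell under the 10 CPM limit and were not tested there. Xirp2 was still at 55.6 to 304 CPM in late mice, 8w replicate 1 included, against 9.18 to 53.6 CPM in early mice. The share of all genes that separate so off those plates is not given here. Comp differed by 5.18 ± 0.54, Ltbp2 by 4.06 ± 0.52, Prg4 by 2.88 ± 0.44, Bdnf by 3.63 ± 0.65 and Abca6 by -2.76 ± 0.55. Their adjusted p-values were 1.9e-06, 8.4e-05, 0.0011, 0.0121 and 0.0206. Pmepa1 and Fabp4 were also still called, at 0.0206 and 0.0456. Dkk3 and Lamb1 missed there at 0.0521 and 0.0634, Spp1 at 0.0597, Penk at 0.0800, Ddah1 and Gm26461 at 0.129, Rbp7 at 0.202, Dio2 at 0.226 and Ubb at 0.254, where its difference was -0.60 ± 0.18. This comparison rested on 71, 34, 261 and 156 fibroblasts in the late mice and 112, 125, 153 and 93 in the early mice.

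**Figure D3:**
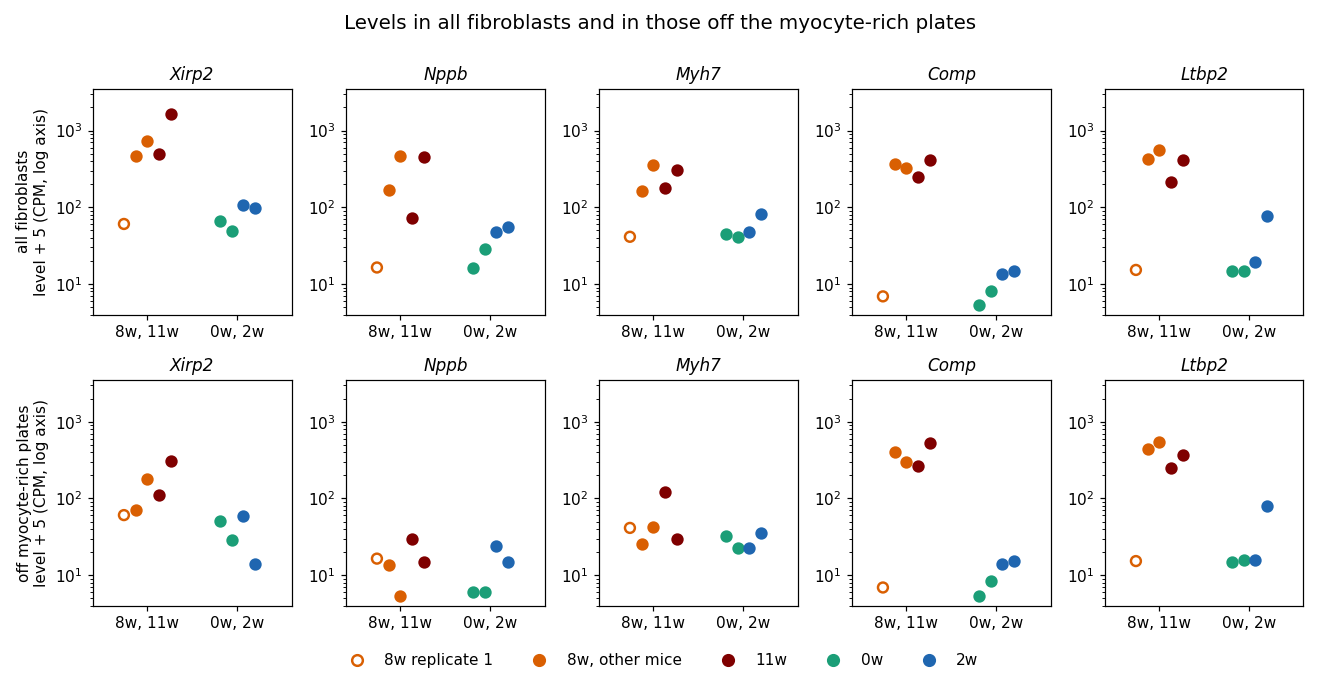
Level of 3 cardiomyocyte-enriched genes and of Comp and Ltbp2 in each mouse, as CPM + 5 on a log axis, in all fibroblasts (top) and in those off the 4 myocyte-rich plates (bottom), 8w and 11w left of 0w and 2w, with 8w replicate 1 open. In the bottom row Nppb is at most 24.4 CPM in any mouse, while Comp stays at 258 to 522 CPM in the same 4 late mice.

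No gene was shown to differ in fibroblasts beyond its difference in endothelial cells of the same mice. The test of the per-mouse difference between both types called 0 of 8646 genes (0.0%) in 9 mice and 0 of 8587 (0.0%) in 8, in limma, with 540 and 600 under an unadjusted p of 0.05. Without 8w replicate 1 the excess in fibroblasts was 3.63 ± 0.75 for Bdnf, 2.83 ± 0.66 for Comp, 2.71 ± 0.62 for Prg4 and 2.08 ± 0.65 for Ltbp2, each with an adjusted p of 0.671. For Pmepa1 it was -0.16 ± 0.62, with an endothelial difference of 1.77, and for Postn -0.53 ± 0.79, with an endothelial difference of 2.5. The levels of Comp and Postn in endothelial cells were 0.0998 and 0.183 of those in fibroblasts.

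The share of fibroblasts among cells that were not cardiomyocytes did not overlap between the arms but missed the adjusted threshold. It was 29.5%, 48.1% and 38.0% at 8w and 47.8% and 49.6% at 11w, against 16.7% and 16.6% at 0w and 28.2% and 17.6% at 2w. The nearest mice of the arms were 8w replicate 1 and 2w replicate 1. The means were 42.6% ± 8.66 and 19.8% ± 5.62 (SD, n = 5 and 4), with p = 0.0159 in the exact permutation test, the smallest that 126 relabellings can give, and 0.0873 after adjustment over 11 shares. In the 8 mice the late mean was 45.9% ± 5.30 (SD, n = 4), with p = 0.0286 in the exact permutation test, the smallest that 70 relabellings can give, and 0.105 adjusted. Shares of recovered cells also follow the digestion and the plates, whose part was not tested.

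The authors divide fibroblasts into 10 subclusters, and none changed its share past the adjusted threshold. These clusters were built on the same expression values, so their sizes are no independent measure. FB2 took 11.7%, 24.1%, 24.6%, 18.3% and 8.58% of fibroblasts in late mice, against 26.7%, 29.9%, 39.4% and 28.3% in early mice, without overlap, at p = 0.0159 in the exact permutation test and 0.0873 adjusted. FB4 took 52.6% in 8w replicate 1, 2.37% to 11.5% in the other late mice and 9.09% to 29.2% in early mice. FB1 took 21.2% in 8w replicate 1, 0% to 4.04% in the other late mice and 5.62% to 30% in early mice. The arms did not overlap for FB1 without 8w replicate 1, with means of 1.68% ± 2.01 in late and 17.9% ± 11.4 in early mice (SD, n = 4 each). There FB1 and FB2 each had p = 0.0286 in the exact permutation test, 0.105 adjusted, and FB1 had 0.111 unadjusted in 9 mice. FB7 and FB10 held cells of the 11w mice only, 133 and 72, all of FB7 from plate K and all of FB10 from plate L. Their median cells had 2348 and 1960.5 non-mitochondrial UMIs, and in FB7 a median of 77.4% of all UMIs were mitochondrial.

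The levels of Comp were also taken inside FB2 and FB4. Among FB2 cells it was at 0, 163, 122, 208 and 543 CPM in late mice, against 0, 0.576, 22 and 0 CPM in early mice, and the 4 late mice were again above all early ones. Ltbp2 in FB2 was lower than in all fibroblasts, at 0 to 183 CPM in late and 1.4 to 12.3 CPM in early mice. There 8w replicate 3, at 1.83 CPM, was inside the early range. Without 8w replicate 1 the arms also overlapped in FB2 for Bdnf, Prg4, Dkk3, Spp1, Ddah1, Fabp4, Penk, Rbp7, Myh7 and Nppb. They did not overlap there for Abca6, Dio2, Pmepa1, Lamb1, Ubb, Gm26461 and Xirp2. The FB2 cells are among those that gave the calls in these mice, so the separation inside FB2, that of Comp included, is no independent support. The share of all genes that separate so in FB2 is not given here. FB2 held 16 to 59 cells a late mouse and 28 to 63 an early mouse. Among FB4 cells, in mice with at least 10 of them, Comp was at 0 and 0 CPM in 8w replicates 1 and 2 and 12 CPM in 11w replicate 1, against 1.13 and 3.44 CPM in the 0w mice and 0 CPM in 2w replicate 1. There the arms overlapped.

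**Figure D4:**
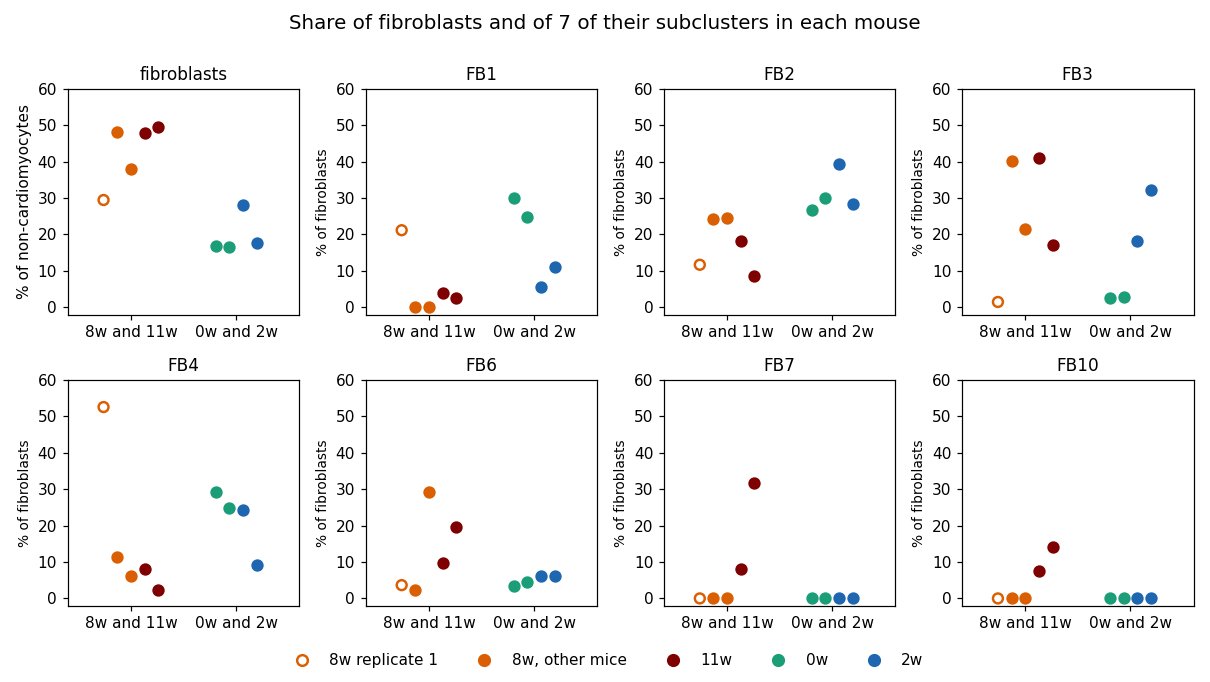
Share of fibroblasts among non-cardiomyocytes (first panel) and of 7 of the 10 subclusters among fibroblasts, in percent, 1 point per mouse, 8w and 11w left of 0w and 2w, with 8w replicate 1 open. Fibroblasts are at 29.5% to 49.6% in late and 16.6% to 28.2% in early mice, and FB7 and FB10 have cells only at 11w.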

How the data were processed

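Raw UMI counts per gene and cell, with a table of each cell's type, subcluster and mouse, were deposited by the authors, with no normalization per the file headers. STAR 2.5.2b, Subread 1.4.6-p1 and the mouse build mm10 are named in the submitters' processing notes. Each fibroblast's counts were scaled to counts per 1e6 non-mitochondrial UMIs (CPM) and averaged per mouse. Genes with a mean of 10 CPM or more entered limma 3.58.1 (trend, robust) on log2(level + 5 CPM), two-sided, with Benjamini-Hochberg adjustment at 0.05, so folds of low genes are understated. Because these values are not counts, limma was the main test, and edgeR 4.0.16 and DESeq2 1.42.0 on raw sums were alternatives. The fits were tested on simulated data. Shares were tested by exact permutation over mice. Genes were named by a rule of size, list membership and a fixed set. Others, among them Bhlhe40, Bhlhe41, Angptl4 and Idh1, were named after their values were seen. The members, lists and names were chosen with earlier results of these data known. How doublets were treated is not given in the sources used here. On plate K the non-mitochondrial total was a median 0.481 of the UMI number in the authors' annotation, and 1 on the other plates used. Mice of the same number (1 or 2) did not deviate together (correlations -0.0484 to 0.0441). Some called genes are not reported here.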

Additional observations from a re-analysis of the deposited data

Results flagged for a closer look

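In each arm of 4 or 5 mice, a value was picked out where its gap to the nearest mouse was too large a part of the arm's range for Dixon's 95% limit. Chance picks about 1 in 20 arms, and 17 of 200 were picked, 12 of them 8w replicate 1. Comp, Ltbp2, Dkk3, Ddah1 and Dio2 were named because they were called without that mouse, so the number picked cannot be set against that rate. On the log2(level + 5 CPM) scale that mouse was below the other late mice for Comp (2.79, the others 7.95 to 8.69), Postn (6.98), Cilp (6.69), Ltbp2 (3.93), Dkk3 (3.35), Ddah1 (2.95), Dio2 (2.54), Meox1 (4.71) and Tnc (2.32). Its fibroblasts had more FB1 (21.2%), FB4 (52.6%) and FB5 (5.84%) cells than those of the other late mice. In the early arm Col4a1 was high in 2w replicate 1 (10.23), Lox was high in 0w replicate 2 (8.47) and C3 was low in 0w replicate 1 (9.18), on the same scale. The share of fibroblasts among non-cardiomyocytes was high in 2w replicate 1 (28.2%), and the share of FB7 was high in 11w replicate 2 (31.7%), whose myocyte-rich plate K gave 53.8% of its fibroblasts. Plate, depth and the mouse itself cannot be told apart for 8w replicate 1, whose fibroblasts all came from 1 plate.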

How the results depend on the processing

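The 9-mouse count of 0 called genes became 352 with DESeq2, 1 with the replicate block (Cytl1, higher, the numbers not pairing the mice) and 1 with scaling to all UMIs. Leaving out 1 mouse gave 0 to 21, with 21 without 8w replicate 1, 1 without 2w replicate 1 (Gm2178, lower) and 1 without 8w replicate 3 (Cytl1). Without 8w replicate 1, the 21 calls became 39 with 4 stages, 341 with DESeq2, 11 in PI cells only (a value of the annotation whose meaning is not given), 32 with array weights, 2 with edgeR, 9 with edgeR on thinned cells, 1 with no low-level filter and 8 with the replicate block. Leaving out a further mouse gave 7 to 30. For 2w against 0w the 10 calls became 0 with edgeR, with no filter and with a pseudocount of 1 CPM, and 59 with 20 CPM, and leaving out 1 mouse gave 0 to 39. For 11w against 8w the 2 calls became 0 with edgeR and with no filter and 1 with either pseudocount, and leaving out 1 mouse gave 0 to 7. Among uncalled genes whose 9-mouse difference exceeded its SE, the direction of 2 reversed, Ankrd1 without the myocyte-rich plates (-0.065) and Serpina3n in PI cells only (-0.093). Uncalled differences smaller than their SE could change sign without being counted, as those of Col1a1 (-0.37 to 0.17) and Acta2 (-0.64 to 0.20) did. In these cases the cause was not tested. Over 87 named genes and all settings in 9 mice, 2386 of 2421 differences kept their side of the threshold without a counted reversal, and 33 passed it. Without 8w replicate 1, over 19 called genes, 325 of 511 did so, 186 no longer passed and 0 reversed. For the fibroblast share, leaving out 1 mouse gave differences of 21.1 to 26.1 percentage points, and for summed cardiomyocyte transcripts -729.7 to 673.4 CPM. Leaving out mice with under 10 fibroblasts changed nothing, since none of the 9 had so few. Depth limits the 11w mice most, with a median of 4961 to 6775.5 UMIs a fibroblast, and genes under 10 CPM were not tested.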
